A study of Mus musculus with 2 samples.

Results

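The Dlk1, Meg3 and Dio3 imprinted domain of mouse chromosome 12 was examined for binding of CTCF in embryonic lung. The region was set by 7 genes, Begain, Dlk1, Meg3, Rtl1, Rian, Mirg and Dio3, whose GENCODE M21 records span chr12:109032187-110281097 on mm10. With 50 kb added on each side the window ran over chr12:108982187-110331097, and it held 37 of the 54943 CTCF sites of the series. A site is the summit of a peak in the optimal list, which the authors thresholded by the irreproducible discovery rate (IDR), a measure of how well peaks recur between replicates. All samples were chromatin of B6NCrl mouse lungs at embryonic day 14.5, immunoprecipitated with a CTCF antibody. The lungs, from male and female embryos and more than 1 dissection, were pulverised and pooled. The 2 samples form 1 group without a second condition. Both come from 1 biosample of 1 donor entry, and how far they differ may reflect technical variation alone. Peak lists hold no read counts, so the depth is unknown, and they do not separate the maternal from the paternal chromosome or 1 lung cell type from another. No expression was measured, so the tissue label could not be checked against marker genes.

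CTCF is a zinc finger protein that halts loop extrusion by cohesin and insulates enhancers from promoters, and its motif has a direction. In the Dlk1, Meg3 and Dio3 domain the protein-coding genes Dlk1, Rtl1 and Dio3 are expressed from the paternal chromosome, and the non-coding RNAs Meg3, Rian and Mirg from the maternal one. This is set by a region between Dlk1 and Meg3 that is methylated on the paternal chromosome, and a second methylated region forms at the start of Meg3. Methylation of a CpG at some positions of the motif can weaken binding of CTCF. Imprinted control regions are a textbook place for binding to 1 parental chromosome. Methylation was not measured here.

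Inside Meg3, a long non-coding RNA gene on the forward strand (chr12:109541001-109571726), CTCF occupied a close pair of sites. Their summits lay 1190 bp and 2046 bp after the annotated start of the gene, 0.856 kb apart. Both peaks are shown whole because the pair is the nearest binding to the region between Dlk1 and Meg3 that passed the optimal threshold on the Meg3 side. Each is printed 5′ to 3′ on the strand of its motif, with the 20-base match to the CTCF motif in capitals, from the GRCm38 patch 6 assembly.
Meg3 first site, chr12:109542139-109542260, forward strand: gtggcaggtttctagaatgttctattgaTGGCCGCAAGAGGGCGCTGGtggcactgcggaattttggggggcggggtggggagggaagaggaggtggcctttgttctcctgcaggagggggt
Meg3 second site, chr12:109542970-109543123, reverse strand: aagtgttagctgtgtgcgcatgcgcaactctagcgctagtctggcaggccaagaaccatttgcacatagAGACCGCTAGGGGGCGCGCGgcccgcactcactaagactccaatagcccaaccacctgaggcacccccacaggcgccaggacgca

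The motifs of the Meg3 pair point toward each other. The first site had a signal of 106.7 in the optimal list (percentile 65.2 of all sites), with 69.8 in replicate 1 and 38.2 in replicate 2. The second had 159.0 (percentile 76.2), with 92.4 in replicate 1 and 64.1 in replicate 2. Signal is the peak caller's own value for each peak. The replicates were not scaled to each other, and over 53263 matched sites replicate 1 was higher by a median factor of 1.23. The second site was therefore the stronger of the pair in both replicates. Its motif holds 4 CpGs and that of the first site 2. In both motifs CpGs begin at positions 5 and 15, counted from 1 at the 5′ end of the motif. Over all motif-bearing sites of the genome, 4.38% have a CpG at position 5 and 28.8% at position 15. Of the 17 motifs of the window, 4 have one at position 5 and 7 at position 15. The motif of the site 14918 bp before Dlk1 also has both. The peak at the second Meg3 site holds 10 CpGs in 154 bp and that at the first 4 in 122 bp. In the 301 bp around each summit both sites have 12 CpGs. Of the 11 annotated Meg3 transcripts, 4 cover the first summit and 5 the second, and each summit is exonic in 1 of these and intronic in the others. A transcript starts at 109542268, which is 77 bp after the first summit and 779 bp before the second.

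Between the 3′ end of Dlk1 and the start of Meg3, a stretch of 77.7 kb (chr12:109463337-109541000), the optimal list held 0 sites. The gap around it, from the site in Dlk1 to the first Meg3 site, was 88.5 kb, and 11.5% of gaps in the genome were longer. The deeper list, called by the authors on the pooled reads of both replicates and holding 300000 peaks, had 19 peaks in the 77.7 kb. Of these, 3 had a summit within 100 bp in both replicate lists, against 16.5% of all pooled peaks outside the optimal list. The strongest, at chr12:109500159-109500448, lay 36968 bp after the end of Dlk1 in an intron of the non-coding gene Gm34081. Its pooled signal was 21.1, rank 52211 of the pooled list, with 10.1 in replicate 1 and 8.61 in replicate 2. It was listed in the conservative IDR list and not in the optimal one. The next in rank had a pooled signal of 13.7, with 7.41 in replicate 1 and 5.28 in replicate 2. The third peak found in both replicates lay 12548 bp before the start of Meg3 with a pooled signal of 9.99, 5.62 in replicate 1 and 6.55 in replicate 2. The ratio of observed to expected CpGs in the 301 bp around its summit was 1.08, the highest of the 19 peaks. None of the 19 held a motif match. The share with a match among all pooled peaks outside the optimal list was not counted, so this has no comparison. The median pooled signal of the 19 was 6.49, against 6.42 over all pooled peaks outside the optimal list. The files do not mark the methylated region between Dlk1 and Meg3, so its overlap with these peaks was not analysed.

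**Figure D1:**
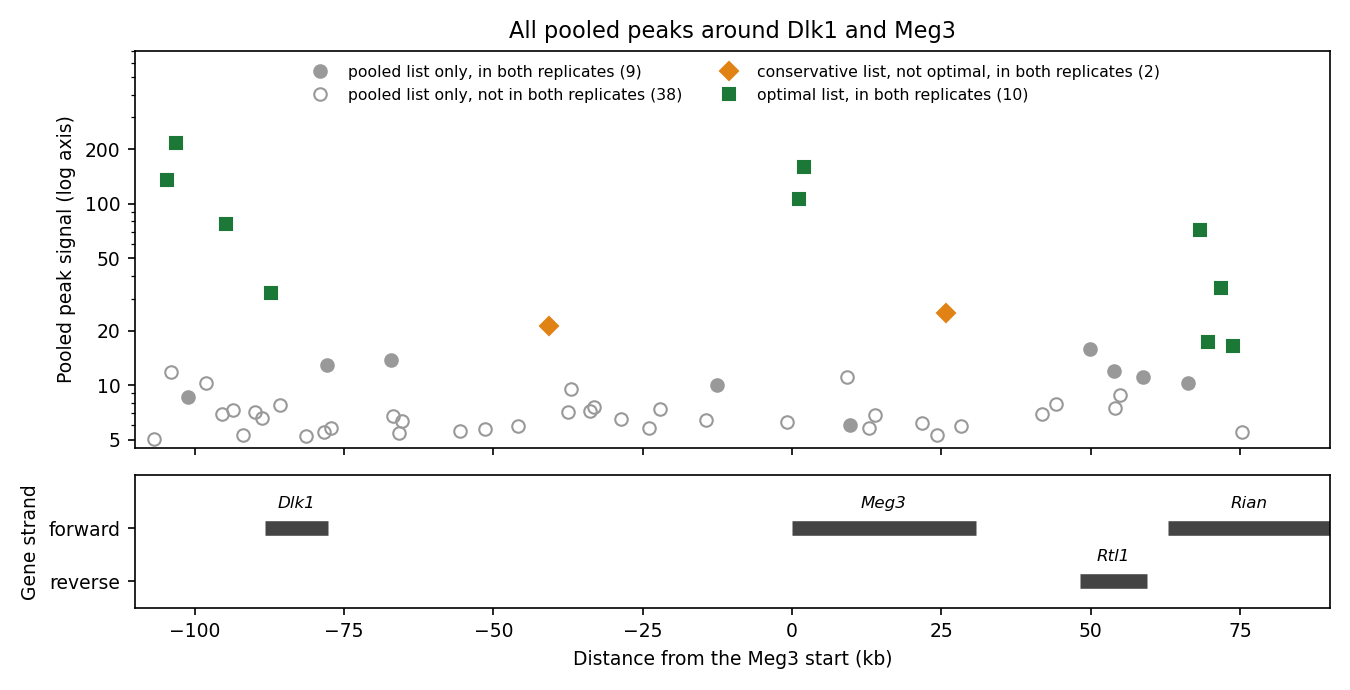
All peaks of the pooled list from 110 kb before to 90 kb after the start of Meg3, by distance (x axis, kb) and signal (y axis, log scale). Filled symbols had a summit within 100 bp in both replicate lists, and boxes below are genes by strand. The pair at Meg3 stands at 106.7 and 159.0, and the strongest peak between Dlk1 and Meg3 reaches 21.1.

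Dlk1 encodes a membrane protein related to the Notch ligands that holds progenitor cells undifferentiated. In the optimal list it was the only member with a site within 1 kb of its gene-level transcription start site (TSS), so 1 of 7 members had one, against 15.3% of all 55413 genes. The summit lay 903 bp after the TSS in a coding exon, at chr12:109453581-109453870. Its signal was 32.3 (percentile 27.1), with 17.3 in replicate 1 and 15.8 in replicate 2, and no motif match was found. The 301 bp around it were the most GC-rich of the 37 sites, at 72.1% G and C, and also had the highest ratio of observed to expected CpGs, 0.773. Over all sites the medians were 48.2% and 0.228, and over the 37 sites 55.8% and 0.264. Within 1 kb of the start of other members the pooled list held only weaker peaks, the strongest at 7.10 for Begain, 6.26 for Meg3, 11.1 for Rtl1 and 23.4 for Dio3, and it held none for Rian and Mirg.

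The strongest binding of the window lay upstream of Dlk1. In the 384.6 kb between Begain and Dlk1 there were 10 sites, 9 of them from 58819 bp before Dlk1 onward. The strongest, at chr12:109393861-109394144, was the outermost of these 9 and lay 147.0 kb before the start of Meg3. Its signal was 401.8, rank 431 and percentile 99.2 of all sites, with 211.8 in replicate 1 (rank 623) and 189.6 in replicate 2 (rank 303). It is 1 of 2 sites of the window above the 90th percentile. A site 14918 bp before the Dlk1 TSS had a signal of 216.6, with 125.2 in replicate 1 and 93.8 in replicate 2. Between them lay sites of 205.9 and 136.2, which held no motif match. The first of these had 99.7 in replicate 1 and 101.4 in replicate 2, and the second 74.2 and 62.4. The other 5 of the 9 had signals of 20.98 to 77.0 and no motif match. The motifs of the 401.8 and 216.6 sites face away from each other, the first toward Begain and the second toward Dlk1 and Meg3. These motifs are shown in 30 bases, 5 on each side of the capitals, because they flank the side of Dlk1 away from Meg3.
Site at 401.8, chr12:109393861-109394144, reverse strand: ccctcAGGCCACCAGGGGGCAGAGGcggtc
Site at 216.6, chr12:109437789-109438024, forward strand: gagacCCGCCGGCAGGGGGCGCAGCcagct

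Binding was absent from the optimal list over the longest stretch between Begain and Dlk1. From the Begain site to the next summit there were 270.4 kb without a site, and 2.47% of all gaps between adjacent sites in the genome were longer. The pooled list had 15 peaks in that stretch, of which 1 was found in both replicates, and its strongest had a signal of 8.81. The Begain site lay in an intron of Begain, which encodes a protein of synapses. It was 23559 bp after the TSS, and the signal was 92.1, with 59.3 in replicate 1 and 39.2 in replicate 2. Its forward motif and the reverse motif of the next site, which had a signal of 52.2, face each other across the stretch. The 3 sites of the flank before Begain, all in introns of Wdr25, had signals of 30.1 to 41.3 and no motif match.

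**Figure D2:**
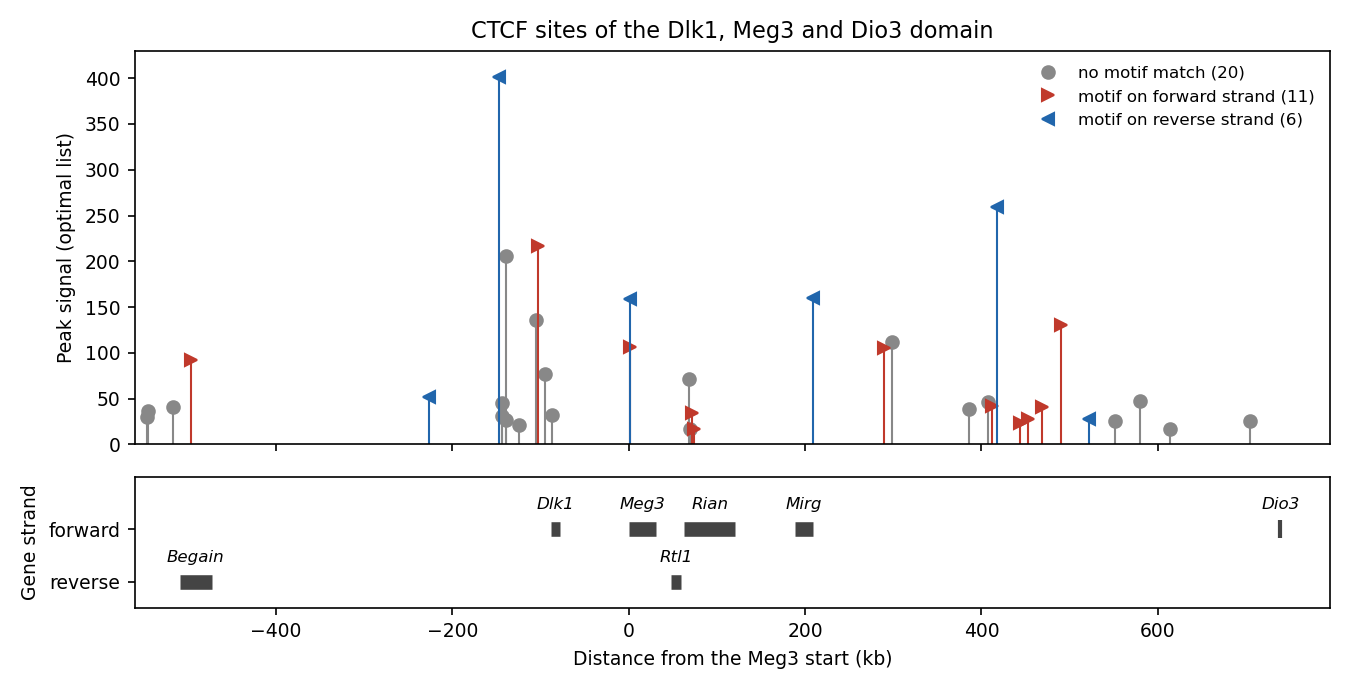
Signal of the 37 sites in the optimal list (y axis) by distance from the start of Meg3 (x axis, kb), with triangles pointing along the motif and circles for sites without one. Boxes below are the 7 genes by strand. The tallest site, at 401.8, lies 147.0 kb before Meg3, and the space between Dlk1 and Meg3 is empty.

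The genes after Meg3 held between 0 and 4 sites. Rtl1, a gene derived from a retrotransposon that is needed in the placenta, had none within its record. Its strongest pooled peak had a signal of 15.8, with 6.52 in replicate 1 and 7.34 in replicate 2. Rian, the host of a cluster of small nucleolar RNAs (snoRNAs), held 4 sites in its introns within 5.49 kb of each other. The strongest had 71.9 in the optimal list, with 42.5 in replicate 1 and 29.1 in replicate 2. The next 3 had 34.4, 17.3 and 16.4. The weakest had the highest motif score of the 37 sites, 21.4 against a highest possible score of 26.4 (log2 units), with signals of 8.78 in replicate 1 and 7.40 in replicate 2. The site at 17.3 was the least alike between replicates among the 37. It had 4.32 in replicate 1 (rank 156197 of 300000) and 10.2 in replicate 2 (rank 49708). The motif of the weakest Rian site is shown as the best match beside the lowest signal of the window.
Site at 16.4, chr12:109614581-109614870, forward strand: gtgctGGTCCACTAGATGGCACTATctgct

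Mirg, the host of a large microRNA cluster, had 0 sites within its record. Its strongest pooled peak had a signal of 20.6, with 7.78 in replicate 1 and 12.3 in replicate 2. The nearest optimal site lay 718 bp past its 3′ end, at chr12:109750075-109750263, with a reverse motif. That site had a signal of 159.6, with 81.5 in replicate 1 and 76.8 in replicate 2. In the 68.0 kb between Rian and Mirg there was no optimal site, and the strongest pooled peak had a signal of 9.06. From the last Rian site to the site after Mirg ran 135.5 kb without a site, and 6.57% of gaps in the genome were longer. Of 52 other genes listed for the domain, 51 were found in the annotation, 48 of them microRNA genes, and 0 of the 51 had a site within 1 kb of the TSS, against 15.3% of all genes and 9.04% of all microRNA genes. The 48 listed microRNA genes lay between 3532 bp and 41118 bp from the nearest site, with a median of 23044 bp. Of 23 annotated snoRNA genes in the span, 0 had a site within 1 kb, against 11.9% of all snoRNA genes. Some microRNA genes outside that list lay closer to a site, and Mir341 and Mir1188 each had 1 within 1 kb. The 0 therefore holds for the listed genes only, not for all microRNA genes of the domain. The Rian site of 17.3 lay 904 bp before Mir341, that of 34.4 lay 945 bp after the start of Mir1188, and the site past Mirg lay 2300 bp after the start of Mir3072.

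Between Mirg and Dio3, 529.6 kb with no other member gene, the window held 16 sites, 9 with a motif. The strongest, at chr12:109958786-109959035, had a signal of 259.7 (percentile 90.4), with 146.6 in replicate 1 and 114.3 in replicate 2. Next came the site just past Mirg described above, and then 1 of 130.2, with 81.1 in replicate 1 and 50.6 in replicate 2. A pair 8.93 kb apart had signals of 111.8 without and 105.1 with a motif match. The other 11 lay between 16.8 and 47.0. The motifs of the strongest site and of that past Mirg are shown as the ones with the highest signal on this side of Meg3.
Site at 259.7, chr12:109958786-109959035, reverse strand: gaggaCGGCCACTGGGGGGCAGTGCtagcc
Site at 159.6, chr12:109750075-109750263, reverse strand: gagaaGTGCCACCAGGGGGCTGCAGaggga

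Dio3 encodes the deiodinase that inactivates thyroid hormone. It had no optimal site in the 33396 bp before its TSS, in the gene or in the 50 kb after it. The strongest pooled peak of that last flank had a signal of 8.77.

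A peak outside the optimal list stood between Dio3 and the non-coding Dio3os, which is transcribed away from it. It was listed in the conservative and not in the optimal list. Its summit lay 889 bp before the TSS of Dio3 and 7 bp before that of Dio3os, at chr12:110278034-110278323. It had a signal of 23.4, with 12.5 in replicate 1 and 11.4 in replicate 2, and held a motif on the reverse strand. It is shown because it lies at a member's start.
Peak at Dio3os, chr12:110278034-110278323, reverse strand: cggctCTCCCACTAGGGGTAGCTGTtgcct

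With the conservative list, the strongest pooled peaks, or the strongest peaks of replicate 1 or of replicate 2, Dio3 therefore joined Dlk1 as a member with a site at its TSS. A further pooled peak 2848 bp before the TSS, inside Dio3os, had 23.9, with 9.78 in replicate 1 and 15.7 in replicate 2, and was in neither thresholded list.

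Among the 16 sites between Mirg and Dio3, 6 shared nearly the same motif. They lay within 110.2 kb, from 412.1 kb to 522.3 kb after the start of Meg3, and all began with the same 15 bases. The group was noticed after the values were seen, and was formed by linking motifs of the window with at most 2 mismatches. Within it, motifs differed at 1 to 4 of 20 positions, and from the other 11 motifs of the window at 4 to 11. They are shown with the shared 15 bases and the rest of the motif in capitals.
Site at 42.1, chr12:109952968-109953257, forward strand: tatggAGGCCAGAAGAGGGCGCTAGattcc
Site at 23.6, chr12:109985134-109985423, forward strand: tgtggAGGCCAGAAGAGGGCATCAGatccc
Site at 27.2, chr12:109993500-109993789, forward strand: tacatAGGCCAGAAGAGGGCACCAGattcc
Site at 41.1, chr12:110009217-110009506, forward strand: ctcccAGGCCAGAAGAGGGCGCCAGatccc
Site at 130.2, chr12:110031456-110031609, forward strand: agaagAGGCCAGAAGAGGGCAACGGatccc
Site at 27.5, chr12:110063167-110063456, reverse strand: tgcaaAGGCCAGAAGAGGGCGTCAGatccc

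Over 60 bases centred on the motif, pairs were identical at 58.3% to 76.7% of positions. These bases include the motif by which the group was formed, so part of the identity was fixed by that choice. The bases outside the motif were not compared on their own, so likeness of the surrounding sequence was not tested. Of the 6 summits, 5 lay in soft-masked sequence, the lower-case marking of repeats in the assembly, while 0 of the other 11 motif-bearing sites of the window did. In the genome the same 15 bases opened the motif of 2224 sites, or 6.89% of motif-bearing sites, of which 91.7% had a soft-masked summit and whose median signal was 42.1. B2 repeats, short interspersed elements of rodents, are known to carry CTCF motifs, but the files name no repeat family, so which repeats these are was not tested. Signals ran from 23.6 to 130.2 with a median of 34.3. The first 5 motifs point along the forward strand and the last along the reverse strand, facing them. In replicate 1 the site at 130.2 had 81.1 and the other 5 had 9.13 to 26.7, and in replicate 2 it had 50.6 and the others 13.0 to 17.0, so 1 site stood above the rest in both.

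Motif and repeat content of the 37 sites can be set beside all sites. The motif matrix was 20 bases wide with the consensus TGGCCACCAGGGGGCACTAT, learned on odd-numbered autosomes and so without chromosome 12. A match within 50 bp of the summit was found at 17 of 37 sites, against 58.8% of all sites. Forward motifs numbered 11 and reverse motifs 6. Motif-bearing sites had a median signal of 92.1 and the others 37.7, against 94.8 and 38.7 over all sites. The median signal was 42.1 in the window and 62.3 over all sites. In the top 20% of signal 3 of 4 domain sites held a motif, against 82.4% of all sites there, and in the lowest 20% 2 of 8 did, against 34.3%. From low to high, the bands of 20% between them had a motif at 5 of 11, 1 of 6 and 6 of 8 domain sites. The shares of all sites in those bands were 47.6%, 58.7% and 70.9%. A CpG lay in 10 of the 17 motifs, against 38.0% of all motif-bearing sites. The motif with the next most CpGs after the Meg3 pair's second site, 3, was that 14918 bp before Dlk1. Soft-masked summits numbered 6 of 37, against 19.6% of all sites. None of these shares was tested, since the region was chosen with earlier results of these data known.

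**Figure D3:**
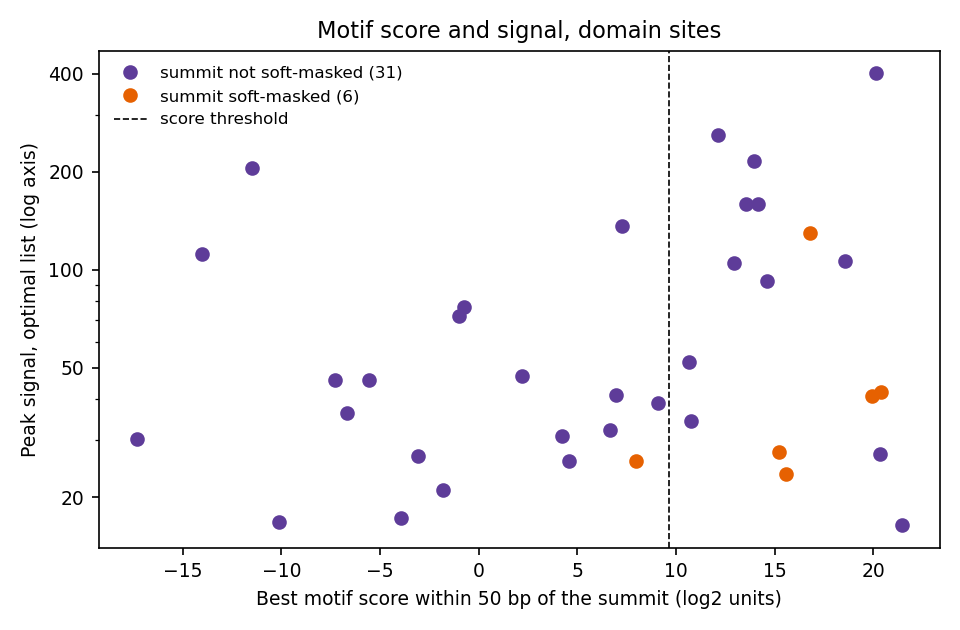
Best motif score within 50 bp of each of the 37 summits (x axis, log2 units, dashed line at the threshold) against signal (y axis, log scale), coloured by whether the summit lies in soft-masked sequence. Strong sites without a match (205.9, 136.2 and 111.8) and weak sites with a high score (such as that at 16.4) are present.

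Adjacent motifs of the domain were in each arrangement. Of the 16 adjacent pairs of motif-bearing sites, 5 were convergent, 4 divergent and 7 in tandem. Among all adjacent pairs of the genome 24.2% were convergent, 24.2% divergent and 51.6% in tandem. The convergent pairs were the Begain site with the next one over 270.4 kb, the Meg3 pair over 0.856 kb, the last Rian site with the site after Mirg over 135.5 kb, the sites at 42.1 and 259.7 over 5.80 kb, and a pair 31.8 kb apart at the end of the group of 6. Loops were not measured.

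Both replicate lists held a summit within 100 bp of each of the 37 sites, against 96.9% of all sites. The optimal list had already been thresholded by IDR with settings not given, so how far this share was fixed in advance is unknown. In percentiles of each replicate list the sites differed by a median of 1.34 points, against 0.958 over all sites. The Rian site at 17.3 differed by 35.5 points, and the next largest difference was 7.82 points. The percentile was higher in replicate 1 at 20 sites and in replicate 2 at 17. Once divided by its median over all sites, the ratio of replicate 1 to replicate 2 lay outside the range of the middle 90% of sites (0.589 to 1.81) at 5 of the 37, each time toward replicate 2. These were 2 sites before Begain, the Rian site at 17.3 and the sites at 23.6 and 27.2 between Mirg and Dio3. With only the strongest 54953 peaks of each replicate, 30 of the 37 were found in both, against 82.5% of all sites.

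**Figure D4:**
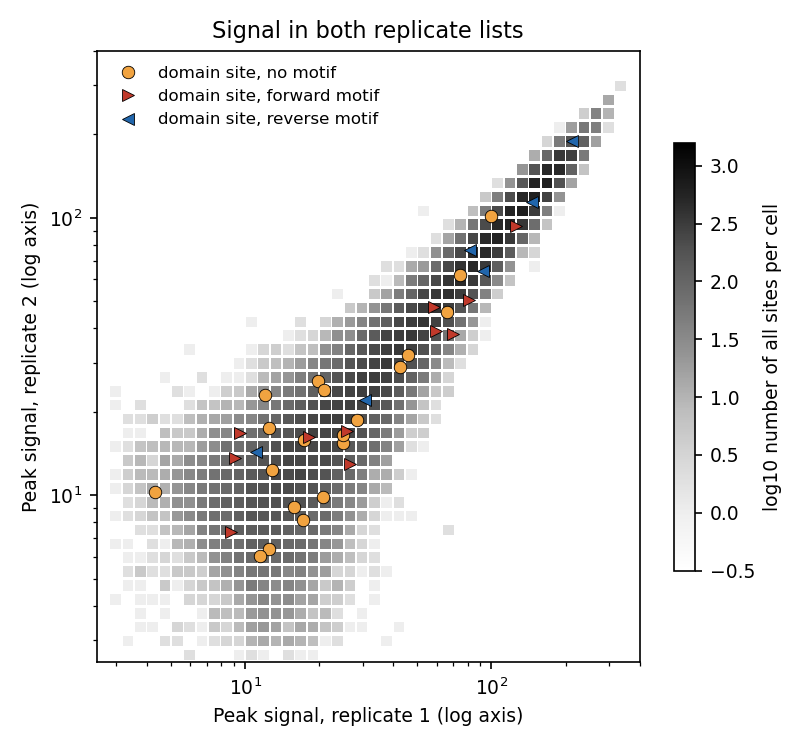
Signal of the 37 sites in replicate 1 (x axis) and replicate 2 (y axis), both on log scales, over the number of all matched sites per cell (grey). The sites follow the grey band from the weakest to the strongest, and the site furthest from it, at 4.32 and 10.2, lies in Rian.

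The conservative list also held 37 entries in the window, of which 30 were shared with the optimal list, or 30 of its 37 sites against 87.5% of all sites. The optimal sites absent from the conservative list had signals of 36.2, 26.8, 20.98, 17.3, 23.6, 27.2 and 16.8. Those at 36.2, 17.3, 23.6 and 27.2 were among the 5 with a ratio outside the range, toward replicate 2. Of the 7 entries found in the conservative list alone, signals ran from 18.5 to 46.3, above those of the weakest optimal sites of the window. They were the peaks between Dlk1 and Meg3 and at Dio3os described above, 1 between Begain and Dlk1, 3 between Mirg and Dio3 and 1 in an exon of Meg3. The last, at chr12:109566631-109566920, lay 25.8 kb after the start of Meg3 and 3084 bp after that of Mir770. It had 24.9 in the pooled reads, 12.01 in replicate 1 and 12.7 in replicate 2, and a forward motif with a score of 19.9. At the edges of the window, the last site before it lay 1989 bp outside with a signal of 39.2 and the first after it 3731 bp outside with 26.4. The outermost sites inside had 30.1 and 25.9, at 12722 bp and 85425 bp from the edges. Over the window there were 27.4 sites per Mb, against 20.8 over the genome.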

How the data were processed

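CTCF ChIP-seq peaks of 2 samples (1 group) were used. The deposited narrowPeak lists (5, on mm10) were those of each replicate, that of the pooled reads, and an optimal and a conservative IDR list, both made by the authors from the other 3 per the deposited README. For the aligner, peak caller and IDR settings: not given in the sources used here. Deposited signal values were not scaled across lists, and each rank or percentile therefore refers to 1 list.

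Sites on chromosomes 1 to 19, X and Y were taken by the summit offset. A replicate peak was matched by the nearest summit within 100 bp. Genes came from GENCODE M21 and sequence from GRCm38 patch 6, the assembly that mm10 names. To learn the motif matrix, the top 3000 sites on odd autosomes by signal were used (seed of 9 bases, 15 rounds, each leaving out the lowest 30%). Its threshold let 1% of windows 1 kb away pass, and the scan was tested on simulated data. Named genes were the 7 members, the nearest TSS of sites, protein-coding genes of the window and a list of other genes of the domain. Members and lists were chosen with earlier results of these data known. No test was made between conditions, as there is 1 group. Alternatives covered the peak list, each replicate left out, flanks, motif settings, matching and TSS windows. Python 3.11.15, numpy 2.4.6, pandas 2.3.3 and matplotlib 3.10.9 were used.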

Additional observations from a re-analysis of the deposited data

How the results depend on the processing

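Of 51 alternative values, 37 stayed close to those reported and 14 moved. Between Dlk1 and Meg3 the count of 0 sites became 1 with the conservative list and 1 with the strongest pooled peaks. It became 1 when counted from the TSS of Dlk1 to that of Meg3, which takes in the Dlk1 site, and 3 up to the 3′ end of Meg3, which takes in the Meg3 pair. The 1 member with a site at its TSS became 2 with the conservative list, with the strongest pooled peaks and with each replicate left out (2 in both cases), by adding Dio3. It became 2 with any transcript start or a 5 kb window, by adding Meg3, and 0 within 500 bp. With a threshold passed by 0.1% of windows, 5 sites held the motif in place of 17 and 0 adjacent pairs were convergent. Of all sites, 16.8% passed that threshold. Values counted as close still varied. Motif-bearing sites numbered 14 within 100 bp of the summit, 19 within 25 bp and 20 with a matrix from even-numbered autosomes. Shares of all sites under these settings are not given here. Among the 11 pairs at least 20 kb apart, 3 were convergent (27.3%), against 27.6% of such pairs in the genome. The number of sites in the window ran from 34 without flanks to 43 with flanks of 100 kb, and was 40 and 42 with each replicate left out. The strongest site stayed between percentiles 98.9 and 99.5 in every list tried. Depth is unknown, so how far it limits the weaker peaks could not be assessed.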
